A study of Rattus norvegicus with 9 samples.

Results

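The epithelium of the choroid plexus was followed through 10 genes on 9 arrays of rat brain RNA: *Ttr*, *Sostdc1*, *Enpp2*, *Folr1*, *Kl*, *Prlr*, *Clic6*, *Aqp1*, *Slc4a5*, and *Otx2*. The members were chosen by name, with earlier results of these arrays in view, among them that the content of this tissue differs from array to array, so the spread described below is not a finding of its own and the tests are the values of the fit, not independent evidence. Each gene had exactly 1 probe among the 30367 probes of the array, which carry 22092 different gene names. Of the 10, 8 passed the filter on dim probes and were tested among 23747 probes, while *Kl* and *Prlr* did not pass it in any group and are given by their values.

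The animals were Sprague Dawley rats, male according to the study's methods. The study profiled 3 rats per group, with 1 array per rat, from the infarcted hemisphere at day 14. Sham rats had the neck artery exposed without a filament and received solvent, I/R rats had the middle cerebral artery occluded for 2 h and then reperfused, and DHI rats had the same occlusion and then Danhong injection, an extract of Danshen and Honghua, through the tail vein each day for 14 days. The Sham and I/R arrays lay on 1 slide and the DHI arrays on another, so slide and treatment cannot be told apart in the comparisons with DHI.

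The choroid plexus is a fringe of epithelium that hangs in the ventricles of the brain and secretes the cerebrospinal fluid. Its cells move ions and water from blood to ventricle, take up vitamins and hormones through receptors, and release carrier proteins into the fluid. It lies beside the ciliated ependyma that lines the ventricle wall, and a sample of a hemisphere can contain more or less of it. In such bulk RNA, fewer cells of a type and less RNA per cell cannot be told apart.

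Upstream sequence from the RefSeq promoter table (build GRCr8) was found for 5 of the 10 members, as 6 entries because *Prlr* had 2. The 250 bases before the annotated start are shown for *Ttr* (chr18:12218508-12218757, plus strand) and *Kl* (chr12:5325753-5326002, plus strand), whose signal was highest on the same 3 arrays, and for *Aqp1* (chr4:85812534-85812783, plus strand), which was high on every I/R array. Capitals mark TATAAA, the core of the TATA box.
Ttr: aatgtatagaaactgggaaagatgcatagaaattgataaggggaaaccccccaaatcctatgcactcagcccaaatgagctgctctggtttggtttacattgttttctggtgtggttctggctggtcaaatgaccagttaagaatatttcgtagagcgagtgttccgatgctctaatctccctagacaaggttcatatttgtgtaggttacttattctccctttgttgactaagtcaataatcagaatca
Kl: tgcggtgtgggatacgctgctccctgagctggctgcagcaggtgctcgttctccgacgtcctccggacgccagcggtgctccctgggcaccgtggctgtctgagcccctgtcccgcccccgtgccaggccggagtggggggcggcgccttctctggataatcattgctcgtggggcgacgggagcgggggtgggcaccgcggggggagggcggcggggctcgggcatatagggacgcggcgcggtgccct
Aqp1: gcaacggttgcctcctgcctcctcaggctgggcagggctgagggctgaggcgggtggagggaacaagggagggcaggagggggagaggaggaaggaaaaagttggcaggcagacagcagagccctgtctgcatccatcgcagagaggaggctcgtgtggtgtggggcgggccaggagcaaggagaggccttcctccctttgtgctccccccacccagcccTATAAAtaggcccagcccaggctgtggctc
TATAAA, searched on both strands, was present in 1 of the 6 entries, that of *Aqp1*, where it began 30 bases before the start, and in 12.9% of the 33469 upstream regions of this length. TAATCC, the core bound by OTX proteins, was searched because *Otx2* is a member and was in 0 of the 6 entries, beside 6.34% of all regions. Only the 250 bases before the annotated start were searched, so a match outside them would not be counted. G and C made up 40.4% of the bases for *Ttr*, 73.2% for *Kl*, and 65.2% for *Aqp1*, against a median of 51.2% over all regions.

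Values are log2 signals of a probe minus the 75th percentile of its array, so 0 is the level of that percentile and 1 unit is a doubling. The arrays were of like quality, with 75.2% to 78.9% of probes well above background and no saturated spot among those of the members. Levels of different probes are not compared, because each probe has its own brightness. The plot of the 10 members by array shows all values.

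**Figure D1:**
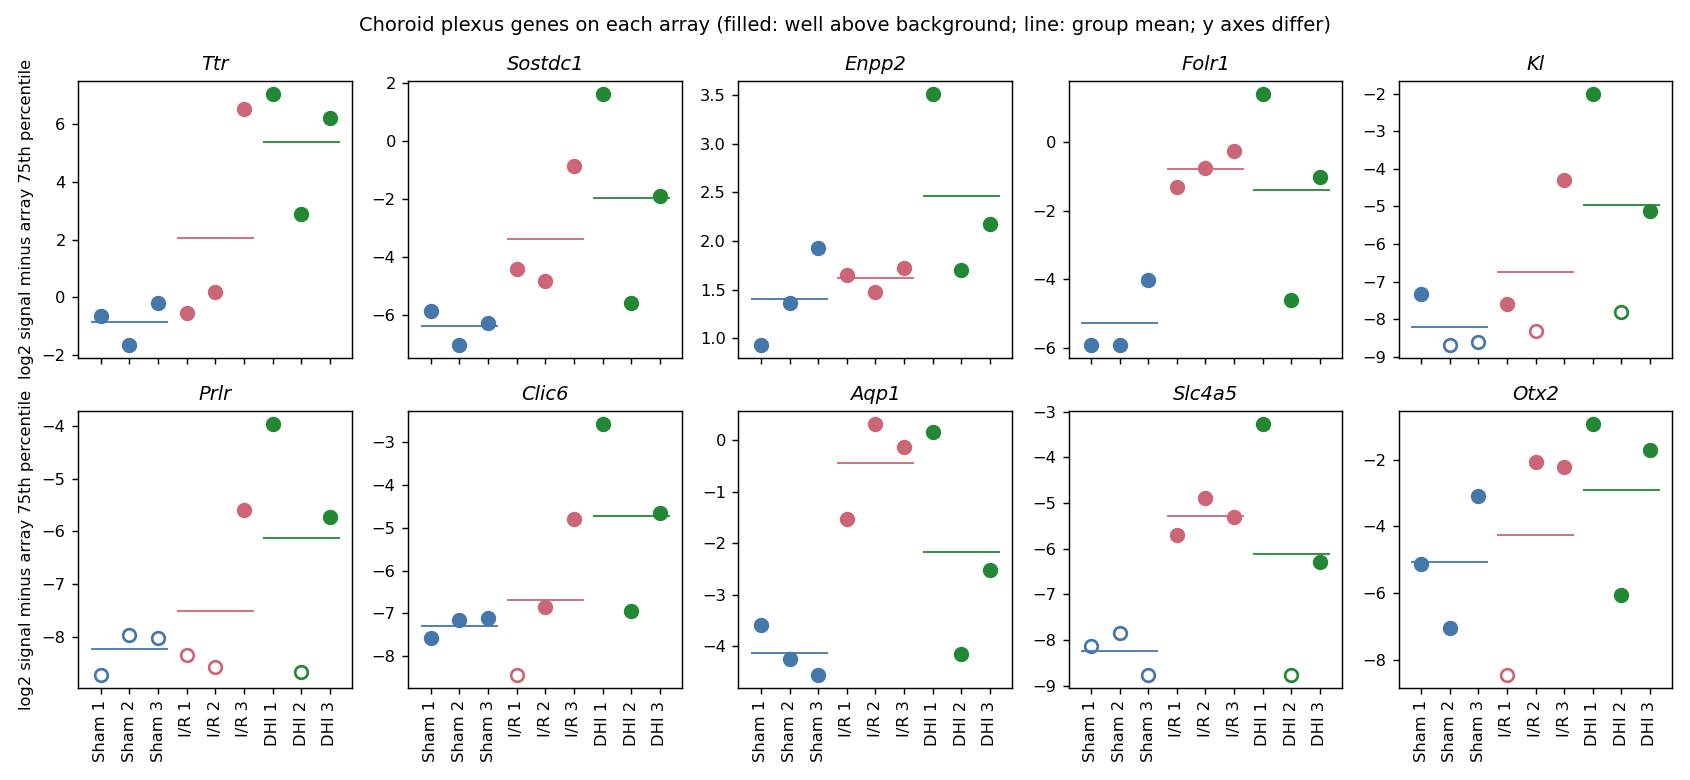
Log2 signal of each of the 10 choroid plexus genes (1 panel per gene, y axes differ) on the 9 arrays (x axis), in log2 units relative to the array's 75th percentile. Points are single rats, filled where the probe was well above background, and lines are group means. DHI 1 is the highest array for 9 of the 10 genes, and DHI 2 is the lowest DHI array for all 10.

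Among carrier and secreted proteins, *Ttr*, which carries thyroid hormone in the cerebrospinal fluid, differed most between arrays. Its signal was -0.65, -1.65, and -0.21 in Sham 1, 2, and 3, -0.54, 0.19, and 6.53 in I/R 1, 2, and 3, and 7.05, 2.88, and 6.20 in DHI 1, 2, and 3. One I/R array thus stood at the level of DHI 1 and DHI 3, with a signal 81.0-fold that of I/R 2, while I/R 1 lay within the Sham range. DHI 2 was above every Sham array but 9.98-fold below DHI 3. The log2 FC was 2.89 ± 1.85 (SE) in I/R versus Sham (adjusted p = 0.233) and 3.32 ± 1.85 in DHI versus I/R (adjusted p = 0.247). In DHI versus Sham it was 6.21 ± 1.85, with an unadjusted p of 0.0101 and an adjusted p of 0.708, and the 3 DHI arrays did not overlap with Sham.

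*Sostdc1*, a secreted inhibitor of BMP and Wnt signaling, measured -5.84, -7.03, and -6.27 in Sham, -4.40, -4.82, and -0.87 in I/R, and 1.63, -5.57, and -1.91 in DHI. All I/R and all DHI arrays were above all Sham arrays, and I/R 3, DHI 1, and DHI 3 were far above the other I/R and DHI arrays. The log2 FC was 3.02 ± 1.74 (SE) in I/R versus Sham (adjusted p = 0.190), 1.41 ± 1.74 in DHI versus I/R (adjusted p = 0.566), and 4.43 ± 1.74 in DHI versus Sham (unadjusted p = 0.0343, adjusted p = 0.708).

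*Enpp2* encodes autotaxin, a secreted enzyme that makes lysophosphatidic acid and that oligodendrocytes also express. It was the member with the narrowest spread, at 0.93, 1.36, and 1.93 in Sham, 1.65, 1.48, and 1.72 in I/R, and 3.51, 1.70, and 2.18 in DHI. The groups overlapped, with Sham 3 above all I/R arrays and DHI 1 alone above 3. The log2 FC in DHI versus Sham was 1.06 ± 0.45 (SE, unadjusted p = 0.0484, adjusted p = 0.708) and was 0.53 without DHI 1 (unadjusted p = 0.118). The oligodendrocyte list, of which all 12 genes were tested, ranged from -0.29 to 0.52 in Sham, from -0.48 to 0.70 in I/R, and from 0.37 to 0.79 in DHI as the mean log2 difference from the Sham mean, and its part in *Enpp2* was not tested.

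Among receptors, *Folr1*, which takes folate into the epithelium, was at -5.92, -5.92, and -4.03 in Sham, -1.30, -0.76, and -0.27 in I/R, and 1.42, -4.61, and -1.01 in DHI. Every I/R array was above every Sham array, and within I/R the values lay close together. DHI 2 lay within the Sham range. *Folr1* rose in I/R versus Sham by a log2 FC of 4.51 ± 1.34 (SE), a 22.8-fold difference (adjusted p = 0.0420, and 6.47e-05 to 0.134 over the 19 alternative fits). The log2 FC was -0.63 ± 1.34 in DHI versus I/R (adjusted p = 0.749) and 3.89 ± 1.34 in DHI versus Sham (unadjusted p = 0.0198, adjusted p = 0.708).

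*Kl*, the membrane protein klotho, which serves as coreceptor for a hormone of the FGF family, was well above background on 5 of the 9 arrays. Its signal was -7.33, -8.69, and -8.61 in Sham, -7.60, -8.30, and -4.31 in I/R, and -2.0, -7.81, and -5.12 in DHI. I/R 3, DHI 1, and DHI 3 were the highest, Sham 1 and I/R 1 were also well above background, and the other 4 arrays were not.

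*Prlr*, the prolactin receptor, was well above background on I/R 3, DHI 1, and DHI 3 and on none of the other 6 arrays. It measured -8.73, -7.97, and -8.03 in Sham, -8.35, -8.58, and -5.60 in I/R, and -3.95, -8.68, and -5.72 in DHI. Because no Sham array measured it, its differences from Sham have no firm size. Without the filter on dim probes, the log2 FC was 0.73 ± 1.20 (SE) in I/R versus Sham (measured on 1 of 3 I/R arrays). In DHI versus Sham it was 2.125 ± 1.20 (measured on 2 of 3 DHI arrays). The arrays overlapped in both comparisons.

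Among channels and transporters, *Clic6*, an intracellular chloride channel protein, was at -7.59, -7.16, and -7.11 in Sham, -8.45, -6.86, and -4.79 in I/R, and -2.56, -6.94, and -4.64 in DHI. I/R 1 was not well above background. DHI 1, DHI 3, and I/R 3 were again the highest arrays, and all DHI arrays were above all Sham arrays, DHI 2 by a small margin. The log2 FC was 0.59 ± 1.18 (SE) in I/R versus Sham (adjusted p = 0.703), 1.99 ± 1.18 in DHI versus I/R (adjusted p = 0.266), and 2.57 ± 1.18 in DHI versus Sham (adjusted p = 0.708).

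*Aqp1*, the water channel of the side that faces the ventricle, was at -3.58, -4.24, and -4.56 in Sham, -1.53, 0.32, and -0.13 in I/R, and 0.17, -4.16, and -2.52 in DHI. Every I/R array was above every Sham array. DHI 1 was at the I/R level, DHI 3 was between the I/R and Sham arrays, and DHI 2 was within the Sham range. *Aqp1* rose in I/R versus Sham by a log2 FC of 3.68 ± 1.00 (SE), a 12.8-fold difference (adjusted p = 0.0405, and 3.89e-06 to 0.134 over the 19 alternative fits). Against I/R, DHI had a log2 FC of -1.72 ± 1.00 (adjusted p = 0.260), and without DHI 1 it was -2.89 (adjusted p = 0.0149).

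*Slc4a5*, a sodium bicarbonate cotransporter, was at -8.14, -7.84, and -8.77 in Sham, -5.69, -4.89, and -5.30 in I/R, and -3.27, -8.77, and -6.30 in DHI. The probe was not well above background on any Sham array or on DHI 2, and it passed the filter through the I/R group alone. The log2 FC in I/R versus Sham was 2.96 ± 1.16 (SE), or 7.76-fold (unadjusted p = 0.0343, adjusted p = 0.0766). Its Sham side rests on signals not well above background, so the size is not firm. The unadjusted p rose to between 0.0549 and 0.0896 when any 1 Sham or I/R array was left out, and with normexp background correction the log2 FC was 0.84 (unadjusted p = 0.0501). Against I/R, DHI had a log2 FC of -0.82 ± 1.16 (SE, adjusted p = 0.620), and without DHI 1 it was -2.24 (adjusted p = 0.0339).

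*Otx2*, a homeodomain factor that the epithelium needs to form and persist, was at -5.12, -7.05, and -3.08 in Sham, -8.47, -2.06, and -2.22 in I/R, and -0.92, -6.07, and -1.70 in DHI. The groups overlapped, with Sham 3 above I/R 1 and DHI 2, and I/R 1 was not well above background. The log2 FC was 0.83 ± 2.05 (SE) in I/R versus Sham (adjusted p = 0.758), 1.35 ± 2.05 in DHI versus I/R (adjusted p = 0.644), and 2.19 ± 2.05 in DHI versus Sham (adjusted p = 0.717).

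Counted over the 8 members tested, 3 rose in I/R versus Sham at the DEG thresholds of the study (unadjusted p under 0.05 and FC over 1.5), namely *Folr1*, *Aqp1*, and *Slc4a5*, and 0 fell. *Slc4a5* entered the test only through the I/R arrays, on which it is high, so its call had to come out in that direction and carries no weight in the count. Among all probes 20.8% rose by the same thresholds. With an adjusted p under 0.05, *Folr1* and *Aqp1* rose, beside 16.6% of all probes. When any 1 Sham array, I/R 1, I/R 2, or DHI 3 was left out, 0 members passed the adjusted p, and without I/R 3 only *Aqp1* did. At the DEG thresholds *Folr1* and *Aqp1* passed in all 19 alternative fits. The I/R arrays were all above the Sham arrays for 4 of the 8 members, *Sostdc1* in addition to those 3, where 26.7% of all probes had the same order. The median log2 FC of the 8 was 2.92, against -0.10 over all probes. For the same reason, *Slc4a5* adds no support to this order or to the median, both of which include it.

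In DHI versus I/R, 0 of the 8 members passed the DEG thresholds, 0 had an unadjusted p under 0.05, and 0 passed by the methods' t-test, where 21.9% of all probes passed the thresholds and 0.00421% an adjusted p under 0.05 by limma. The DHI and I/R arrays overlapped for all 8 members, while 9.54% of all probes had no overlap. *Aqp1* and *Slc4a5* passed when DHI 1 was left out, *Ttr* and *Clic6* when I/R 3 was left out (unadjusted p = 0.00215 and 0.0397), and *Enpp2* and *Clic6* when DHI 2 was left out (unadjusted p = 0.0253 and 0.0209).

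In DHI versus Sham, *Ttr*, *Sostdc1*, *Folr1*, and *Enpp2* rose at the DEG thresholds, 4 of the 8 tested, beside 2.52% of all probes, and 0 fell. No member and 0.0% of probes passed the adjusted p by limma, at which the 4 had a p of 0.708 each. By the methods' t-test 1 of the 8 passed the DEG thresholds, *Ttr*. The arrays of both groups did not overlap for *Ttr*, *Sostdc1*, and *Clic6*, 3 of the 8, with DHI higher, as for 10.3% of all probes. The count of 4 fell to 1 without Sham 1, Sham 2, DHI 1, or DHI 3, and rose to 7 without DHI 2. *Ttr* passed in all 19 alternative fits. Each group of arrays enters more than 1 comparison, so the counts are not independent of each other.

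**Figure D2:**
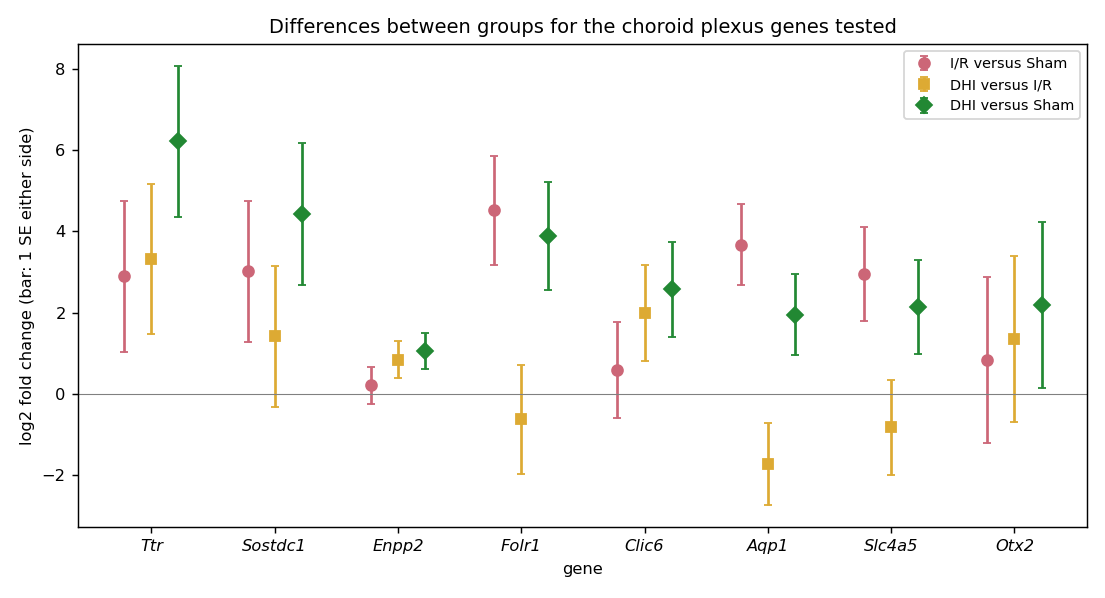
Log2 FC (y axis, in log2 units) of the 8 members tested (x axis) in the comparisons of I/R with Sham, DHI with I/R, and DHI with Sham, with bars of 1 SE either side. *Folr1* and *Aqp1* have the largest values in I/R versus Sham (4.51 and 3.68), and *Ttr* has the largest in DHI versus Sham (6.21).

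The spread within groups was wide for most members. The pooled within-group SD, taken over the 3 groups, was 2.62 log2 units for *Ttr*, 2.45 for *Sostdc1*, and 2.89 for *Otx2*, and its median over the 8 members tested was 1.77, against 0.34 over all probes tested. Of all probes tested, 0.0674% had a larger value than *Ttr* and 0.0295% a larger one than *Otx2*. *Enpp2*, at 0.62, was the only one of the 8 below the 90th percentile of all probes, which was 0.94. The SD between spots of 1 probe within an array measures the technical spread of the array alone. For *Sostdc1*, spotted 10 times per array, it was 0.13 in the median array and 0.52 at most, and for *Aqp1*, also spotted 10 times, it was 0.062 and 0.17.

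**Figure D3:**
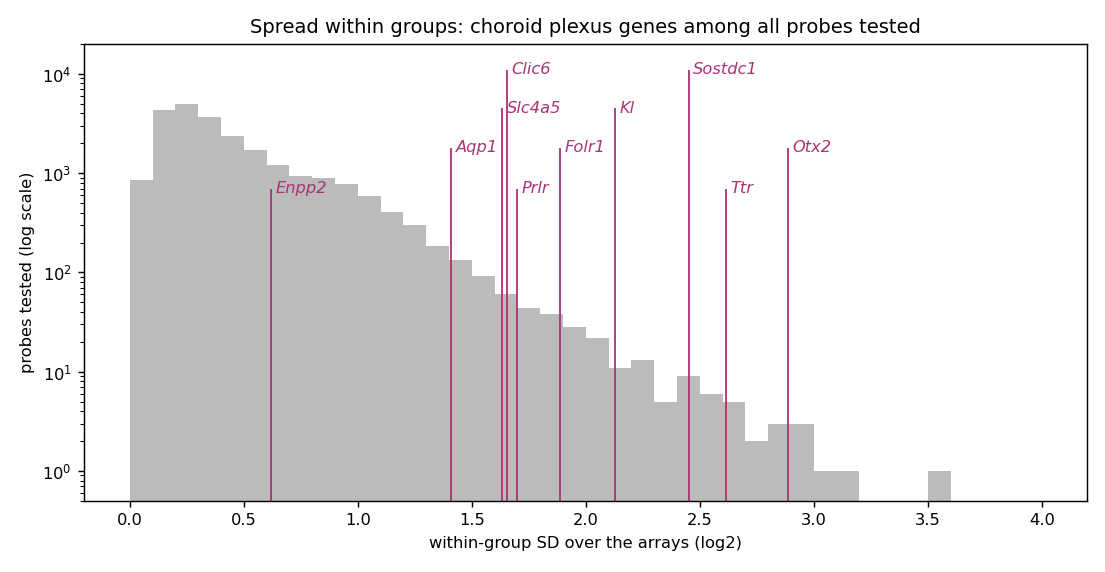
Number of probes tested (y axis, log scale) by within-group SD of the log2 signal (x axis, log2 units), with the 10 choroid plexus genes marked by lines whose heights carry no value. *Kl* and *Prlr* are marked but are not among the probes tested. Only *Enpp2*, at 0.62, falls in the bulk of the distribution.

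The members did not all follow the same arrays. For *Ttr*, *Sostdc1*, *Kl*, *Prlr*, and *Clic6* the 3 highest arrays were I/R 3, DHI 1, and DHI 3. *Folr1*, *Aqp1*, and *Slc4a5* were above all Sham arrays on I/R 1 and I/R 2 as well as on I/R 3, whereas I/R 1 was within or below the Sham range for *Ttr*, *Kl*, *Prlr*, and *Clic6*. Within groups, the deviations of the arrays from their group mean correlated with those of *Ttr* at Pearson's r of 0.84 for *Sostdc1*, 0.85 for *Kl*, 0.86 for *Prlr*, and 0.87 for *Clic6*, and at 0.42 for *Slc4a5*, 0.45 for *Enpp2*, 0.51 for *Aqp1*, 0.60 for *Folr1*, and 0.68 for *Otx2*. These values describe 9 arrays that share a scaling step and hold few independent deviations.

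Marker lists of neighbouring cell types moved with some of these members. Of the 15 ependymal cilia genes, 12 were on the array and tested, and their mean log2 difference from the Sham mean was -0.63, -0.26, and 0.89 in Sham, 0.41, 2.88, and 2.59 in I/R, and 2.92, 0.07, and 2.84 in DHI. It was thus low on I/R 1 and DHI 2 and high on I/R 2, as was *Otx2*. Of the 12, 1 rose in I/R versus Sham, 0 changed in DHI versus I/R, and 3 rose in DHI versus Sham at the DEG thresholds. The shares over all probes were 20.8%, 21.9%, and 2.52% in the same order. Among the cilia genes, *Rsph1*, part of the radial spokes of cilia, had the brightest probe, at -0.70, -1.20, and -1.17 in Sham, -1.91, -0.41, and -0.16 in I/R, and -0.01, -1.32, and -0.23 in DHI. *Foxj1*, the transcription factor that turns on motile cilia genes, was at -3.68, -3.89, and -2.67 in Sham, -0.03, 0.04, and -0.08 in I/R, and 0.42, -3.41, and -0.77 in DHI. The part of ependyma in the values of the members was not tested.

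The lists of meninges and fibroblasts and of microglia and macrophages were high on all I/R arrays and on DHI 1, like *Folr1*, *Aqp1*, and *Slc4a5*. The 12 meningeal and fibroblast genes, all tested, ranged from -0.47 to 0.52 in Sham, from 2.63 to 3.24 in I/R, and from -0.59 to 3.12 in DHI, and 10 of them rose in I/R versus Sham. Their brightest probes were those of *Col1a2* and *Fmod*, a collagen chain and a collagen-binding proteoglycan. The 10 microglia and macrophage genes ranged from -0.06 to 0.11 in Sham, from 2.81 to 4.20 in I/R, and from 0.09 to 3.45 in DHI, led in brightness by the complement genes *C1qb* and *C1qa*, and 9 of them rose in I/R versus Sham. On DHI 3 these lists stood at -0.39 and 0.65, while *Folr1* was 4.28 above its Sham mean on the same scale. The 10 neuron genes, led by *Eno2* and *Snap25*, all fell in I/R versus Sham and ranged from -3.58 to -1.02 in I/R and from -1.72 to 0.20 in DHI. In I/R versus Sham, 20.8% of all probes rose and 22.3% fell at the DEG thresholds, by which these genes were counted. The part of these cell types in the values of the members was not tested.

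**Figure D4:**
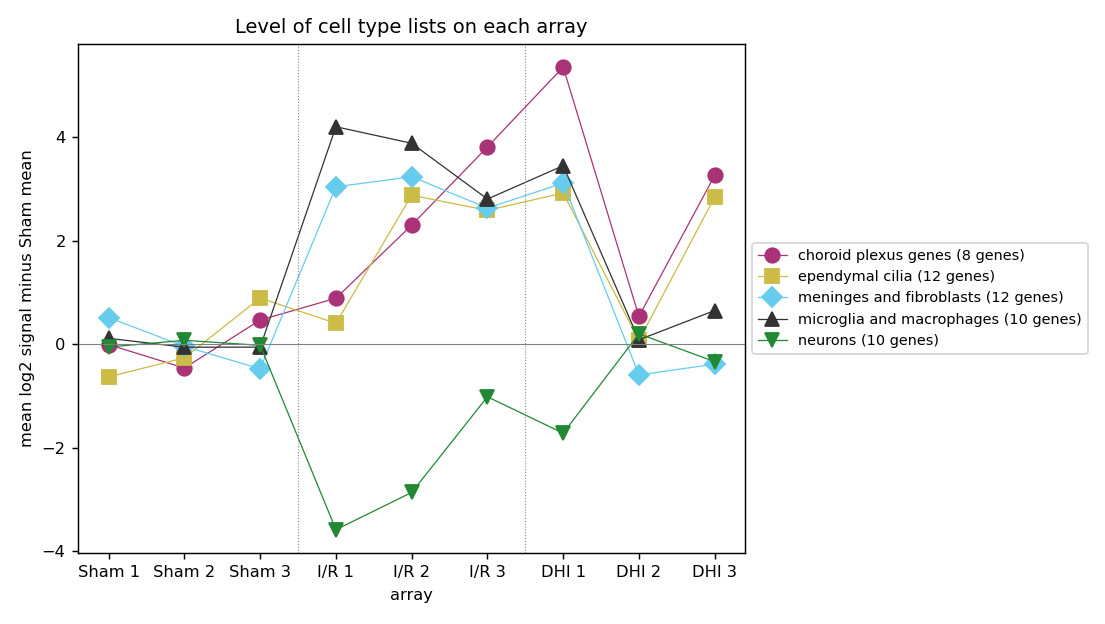
Mean log2 signal minus the Sham mean (y axis, log2 units) of the 8 choroid plexus genes tested and of the lists for ependymal cilia, meninges and fibroblasts, microglia and macrophages, and neurons, on each of the 9 arrays (x axis); lines only join the points of a list. The choroid plexus genes stood at 3.81 on I/R 3, 5.36 on DHI 1, and 3.26 on DHI 3, and at 0.54 on DHI 2.

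Other sources of member transcripts were checked by their defining genes. *Ttr* is also a liver gene, and of 6 liver genes 4 were tested, of which 0 changed in I/R versus Sham and 1 rose in DHI versus Sham. At the DEG thresholds 2.52% of all probes rose in DHI versus Sham, and 20.8% rose and 22.3% fell in I/R versus Sham. The liver gene that rose was well above background on 5 of 9 arrays, so its call adds no support. Among the liver genes not tested, *Cyp2e1* was well above background on 0 of 9 arrays and *Apoh* on 2. The list ranged from -0.12 to 0.10 in Sham, -0.39 to -0.16 in I/R, and -0.60 to 0.57 in DHI. Its brightest probes were those of *Ahsg* and *Alb*. Of 6 pituitary genes 2 were tested, *Pomc* and *Lhb*, and those 2 ranged from -0.05 to 0.07 in Sham, 0.22 to 0.67 in I/R, and 0.03 to 0.96 in DHI. Among those not tested, *Prl* was well above background on 0 of 9 arrays, *Gh1* on 1, *Tshb* on 2, and *Cga* on 5. Of 5 pineal genes, the tissue in which *Otx2* is also expressed, 4 were tested, led by *Asmt* and *Aanat*, with *Crx* well above background on 1 array, and the list ranged from -0.19 to 0.25 in Sham, -1.25 to -0.81 in I/R, and -1.27 to -0.09 in DHI. Red blood cells and endothelium express *Aqp1*. The red blood cell list (5 of 7 genes tested, led by *Hba-a2* and *Hbb*) ranged from -1.06 to 0.86 in Sham, -1.11 to -1.05 in I/R, and -0.33 to 1.08 in DHI, and 1 of its genes rose and 4 fell in I/R versus Sham. The endothelial list (10 genes, led by *Slco1a4* and *Cldn5*) ranged from -0.12 to 0.09, 0.18 to 0.83, and -0.07 to 0.38 in the same order, and 3 of its genes rose in I/R versus Sham at the DEG thresholds, 2 of them with an adjusted p under 0.05. At the same thresholds 20.8% of all probes rose and 22.3% fell in I/R versus Sham, and 16.6% rose with an adjusted p under 0.05. The endothelial counts lie near these shares. The part of red blood cells and endothelium in the rise of *Aqp1* was not tested.

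Beyond the members, 37 further genes that the choroid plexus expresses were listed by role. Of these, 33 were on the array and 29 were tested, and 12 rose and 3 fell in I/R versus Sham at the DEG thresholds, where 20.8% of all probes rose and 22.3% fell. An adjusted p under 0.05 was reached by 10 of the 29, beside 32.3% of all probes. Between DHI and I/R 3 rose and 4 fell, 7 of 29, beside 21.9% of all probes that changed. In DHI versus Sham 3 rose, beside 2.52% of all probes, and 0 fell, with 0 past the adjusted p by limma in either comparison with DHI. Their median log2 FC was 1.00, -0.40, and 0.88 in these comparisons, beside -0.10, 0.10, and 0.02 over all probes. By role, 2 of 9 ion and water transport genes, 3 of 8 solute transporters, 4 of 7 secreted and matrix genes, and 3 of 5 transcription and structure genes rose in I/R versus Sham, and 2, 1, 0, and 0 fell. The shares over all probes were 20.8% and 22.3%. *F5*, well above background on 8 of 9 arrays and lowest on Sham 1, is in both counts of genes that rose over Sham. *Car12*, named as an exception, was well above background on 7 of 9 arrays and lowest on I/R 1 and I/R 2. It is among the genes that rose in DHI versus I/R. Both passed the filter through groups in which they were higher, so these calls add no support to the counts.

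Among the secreted and matrix genes, *Igf2*, a growth factor that the meninges make as well, had the largest change in I/R versus Sham. It was at 2.57, 1.96, and 1.69 in Sham, 6.41, 6.09, and 5.83 in I/R, and 5.80, 1.80, and 1.97 in DHI (log2 FC 4.03 ± 0.96 SE, adjusted p = 0.0397). *Col8a1*, a short-chain collagen, rose by a log2 FC of 3.88, and *Igfbp2*, which binds the IGF proteins and had 2 probes, by 3.09, both with all I/R arrays above all Sham arrays. *F5*, coagulation factor V, was at -8.26, -7.07, and -7.12 in Sham, -3.95, -4.05, and -3.07 in I/R, and -0.72, -6.72, and -3.83 in DHI. It passed the DEG thresholds (log2 FC 3.79 ± 1.28 SE, adjusted p = 0.0530), but not when Sham 1 or I/R 3 was left out, with unadjusted p of 0.0572 and 0.0564.

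Among the solute transporters, *Slc39a4*, a zinc importer, rose by a log2 FC of 2.83 and *Steap1*, a metalloreductase, by 2.63. *Msx1*, a homeodomain factor, rose by 2.67 and *Krt8*, an epithelial keratin, by 2.64, of which *Krt8* lost its call without any 1 of Sham 1, Sham 2, I/R 2, or I/R 3 (unadjusted p 0.0529 to 0.0635). Among the ion and water transport genes, *Slc12a4*, a potassium chloride cotransporter, rose by 2.01 and *Trpv4*, an osmosensitive channel, by 2.00, the latter not without any 1 of Sham 2, Sham 3, I/R 1, or I/R 3 (unadjusted p 0.0533 to 0.0640). *Atp1b1*, a subunit of the sodium pump that neurons also express, fell by 1.44. For each of these genes the I/R and Sham arrays did not overlap.

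The 4 listed genes on the array that did not pass the filter were added after their values were seen. *Tmem72*, a membrane protein of this epithelium, was well above background on 3 of 9 arrays and measured -8.62, -8.66, and -7.93 in Sham, -8.68, -8.88, and -5.03 in I/R, and -2.39, -8.11, and -5.53 in DHI. *Cldn2*, the claudin of its leaky tight junctions, also well above background on 3 arrays, measured -8.89, -9.08, and -9.37 in Sham, -7.54, -7.43, and -3.83 in I/R, and -1.62, -8.35, and -5.03 in DHI. Both were highest on I/R 3, DHI 1, and DHI 3, as *Ttr* was. *Lmx1a*, a transcription factor of the roof plate, was at -3.38 on Sham 3 and at -9.64 and -9.46 on Sham 1 and Sham 2, and at -4.73, -2.28, and -5.15 on I/R 3, DHI 1, and DHI 3. *Abca4*, an ABC transporter, was at -7.75, -7.99, and -8.19 in Sham, -6.52, -7.34, and -6.83 in I/R, and -4.55, -7.99, and -6.02 in DHI. It was highest on DHI 1 and DHI 3, followed by I/R 1. *Lmx1a* and *Abca4* were each well above background on 4 of 9 arrays, so the order of their low values is not firm.

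The genes whose within-group deviations were most like those of *Ttr* were sought among 13694 symbols other than the members. The 8 highest were *Ispd*, *Med16*, *Pex10*, *Gpx2*, *Prkag2*, *Abi1*, *Tiprl*, and *Cpne7*, with Pearson's r from 0.98 to 0.94 over 9 arrays. None is on a choroid plexus list. Their signal moved over a much narrower range than that of *Ttr*, from 0.22 log2 units for *Med16* to 3.23 for *Cpne7*, against 8.70 for *Ttr*. *Cpne7*, a calcium-dependent phospholipid-binding protein, was at 0.61, -0.25, and 0.16 in Sham, -1.29, -0.14, and 1.94 in I/R, and 0.68, -0.38, and 0.66 in DHI. An r above 0.9 was reached by 29 of the symbols, 0.212%.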

How the data were processed

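RNA from the infarcted hemisphere of 9 rats (3 Sham, 3 I/R, and 3 DHI) was measured on one-color Agilent arrays, and groups were taken from the sample labels. Where the labels do not state that replicates were separate animals, the study calls them biological replicates. The authors deposited, per array, the output of Agilent Feature Extraction 10.7.1.1, whose processed signal is a background-corrected intensity on a linear scale that is not scaled between arrays. They also deposited a series table on a log2 scale, whose normalization is not named in the sources used here and which followed quantile-normalized log2 intensities (Pearson's r 0.99953). No other column of sample values was left unused (0 columns).

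Control spots and spots marked as outliers (392 to 725 per array) were left out. The log2 signals of the spots of a probe were averaged, and the 75th percentile of the array was subtracted. That percentile lay between 1816.3 and 3464.4 in intensity. The test was limited to probes that all 3 arrays of some group showed well above background (on at least 50% of the spots). A signal not well above background gives no firm level, and a fold change against it is not a bound. The number of arrays limits the precision. One limma model (lmFit and eBayes) was fitted to all 9 arrays, with Benjamini-Hochberg adjustment over the 23747 probes tested. R 4.3.3, limma 3.58.1, data.table (version 1.17.8), Python, pandas, and matplotlib were used. On simulated data with known answers for I/R versus Sham (23747 probes, 200 of them changed by 2 log2 units) 186 changed probes were recovered at the DEG thresholds with 799 false calls, and 124 with an adjusted p with 7 false calls. The changed probes were drawn from all probes tested, and the median SE was 0.248. The members tested had SEs of 0.45 to 2.05, so this recovery does not carry over to them.

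The members and the gene lists were chosen with earlier results of these data known. The text names all 10 members, the up to 12 listed choroid plexus genes with the largest change among those past the DEG thresholds in I/R versus Sham, the 8 genes most like *Ttr*, and the 2 brightest genes of each marker list. Exceptions are named as such, and 1 gene that the rule names is not reported here. Probe coordinates in the files (rn4) were not combined with the GRCr8 sequences. The alternatives were quantile normalization, no scaling, normexp (offset 50), the authors' table, no filter on dim probes, a filter on all 9 arrays, only the 2 groups compared, array weights, a replicate block, the methods' t-test, and leaving out each array.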

Additional observations from a re-analysis of the deposited data

How the results depend on the processing

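The counts below are of the 8 members tested. In I/R versus Sham, the count at the DEG thresholds was 3 and became 5 with array weights, 2 with normexp and with the filter on all 9 arrays, and 4 with only the 2 groups compared. The count with an adjusted p was 2 and became 0 with no scaling, 1 with no filter on dim probes, 5 with array weights, and 3 with only the 2 groups compared and with the methods' t-test. Leaving out 1 array in turn gave 2 to 4 at the DEG thresholds and 0 to 3 with an adjusted p. Between DHI and I/R, the count of 0 at the DEG thresholds became 1 with normexp and 6 with array weights, and the count of 0 with an adjusted p became 6 with array weights. Leaving out 1 array gave 0 to 2 by either rule. In DHI versus Sham, the count of 4 at the DEG thresholds became 2 with no scaling, 8 with array weights, 6 with normexp, 1 with the methods' t-test, and 3 with quantile normalization, the authors' table, and only the 2 groups compared, and leaving out 1 array gave 1 to 7. With an adjusted p the count of 0 became 8 with array weights and was 0 to 0 with 1 array left out. The array weights were estimated by a fit that did not converge and gave DHI 3 a weight of 130.4 and I/R 2 a weight of 9.59, against 1.79 or less for the other arrays. The causes of these changes were not tested. The median within-group SD of the members, 1.77, was 1.97 with no scaling and 1.33 with normexp.

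The direction of a member turned in 11 of the 673 fits of single genes. In I/R versus Sham, *Enpp2* was -0.030 with array weights and -0.026 (without Sham 1) to 0.47 with 1 array left out, *Otx2* was -0.26 to 2.94 (below 0 without Sham 2, at -0.15, I/R 2, or I/R 3, at -0.18), and *Clic6* was -0.37 (without I/R 3) to 1.46. Between DHI and I/R, *Slc4a5* was 0.44 with normexp and -2.24 to 0.51 (without DHI 2) with 1 array left out, *Otx2* was -0.76 (without I/R 1) to 2.94, *Sostdc1* was -0.38 (without DHI 1) to 3.22, and *Folr1* was -2.04 to 0.98 (without DHI 2). None of these had passed the thresholds. No scaling moved the median of all probes to 0.10 in I/R versus Sham, -0.36 in DHI versus I/R, and -0.25 in the third comparison.

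With the replicate block, the counts at the DEG thresholds were 3, 0, and 3 in that order, and with an adjusted p 2, 0, and 0. *Enpp2* lost its call in DHI versus Sham. The numbers share no stated animal or day, and arrays of the same number correlated at -0.34 to 0.47 in their deviations from the group means, so they were not taken as pairs. Another probe of a member could not be tried, since each has 1. Probes not well above background (*Prlr* and *Slc4a5* on every Sham array, and *Kl* on Sham 2 and Sham 3) have no firm level there.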

Other observations

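DHI 3 combined values that no other array combined. Its choroid plexus genes stood at 3.26 log2 units above the Sham mean and its ependymal cilia genes at 2.84, while its meningeal and fibroblast genes stood at -0.39, its microglia and macrophage genes at 0.65, and its neuron genes at -0.34. On I/R 3 the same lists stood at 3.81, 2.59, 2.63, 2.81, and -1.02, and on DHI 2 at 0.54, 0.07, -0.59, 0.09, and 0.20. I/R 1 had the highest value for microglia and macrophages (4.20) and the lowest for neurons (-3.58), with choroid plexus genes at 0.89 and cilia genes at 0.41. The arrays were singled out after their values were seen, and no test was run.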
